A study of Rattus norvegicus with 6 samples.

Results

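Activity-induced immediate early genes were followed in retinal ganglion cells, which carry the output of the retina to the brain. The 10 genes were chosen by name (Fos, Fosb, Junb, Jund, Egr1, Egr2, Egr3, Arc, Nr4a1 and Ier2), and every probe set that the platform annotation gives to 1 of these symbols alone was used. That gave 14 probe sets for the 10 genes, of 20826 probe sets for 14217 genes named in this way. The cells came from 3 adult male Brown Norway rats, in which hypertonic saline injected into an episcleral vein had raised the pressure of 1 eye for 10 days, a model of glaucoma. The other eye of the same rat was the study's control. Fluorogold placed in the superior colliculus marked the cells of both eyes through their axons, and 2000 marked cells were collected per eye by laser capture, which can also take up RNA of neighbouring cells. Each eye gave 1 array, and the arrays are OS (left eye, n = 3) and OD (right eye, n = 3). Which of the eyes was injected is not in the labels, so every difference here is left minus right within a rat, and its sign says nothing about pressure. The study was made to compare ganglion cells of pressured and control eyes.

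Immediate early genes are transcribed within minutes of a stimulus, before any new protein is made. In neurons, calcium entry and growth factor signals reach them through kinases that act on the transcription factors CREB and SRF, which are already bound near the genes. Most of their products are themselves transcription factors that switch on later genes, and they are widely used to mark neurons that were recently active. Injury, handling and tissue removal also induce them. Fos and Fosb pair with Junb or Jund in the dimeric factor AP-1. The Egr genes encode zinc finger factors, Nr4a1 encodes an orphan nuclear receptor, and Arc encodes a protein of the synapse that promotes the uptake of glutamate receptors. Ier2 encodes a small nuclear protein.

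Promoter sequences of 7 of the 10 genes were found in the RefSeq table of build GRCr8, which had no entry matched for Fos, Egr3 or Arc. The 250 bases before the start of 4 of them are given because these genes carry the contrasts described below. Egr1 and Ier2 peaked on the same array, the brighter of the Egr2 probe sets stayed nearly level, and 1 of the 3 Jund probe sets lay above the background limit on all 6 arrays. Capitals mark the CArG box, the site known to bind SRF, and the CRE half-site TGACG, known to bind CREB, read on either strand. All are written 5′ to 3′ on the strand of the gene.
Egr1 (chr18:26736828-26737077, plus strand): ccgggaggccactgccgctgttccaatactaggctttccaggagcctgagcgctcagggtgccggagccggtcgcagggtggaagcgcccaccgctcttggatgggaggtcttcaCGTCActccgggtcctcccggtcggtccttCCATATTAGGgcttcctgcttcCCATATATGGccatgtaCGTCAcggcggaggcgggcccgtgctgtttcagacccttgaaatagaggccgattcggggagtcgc
Egr2 (chr20:21054442-21054691, minus strand): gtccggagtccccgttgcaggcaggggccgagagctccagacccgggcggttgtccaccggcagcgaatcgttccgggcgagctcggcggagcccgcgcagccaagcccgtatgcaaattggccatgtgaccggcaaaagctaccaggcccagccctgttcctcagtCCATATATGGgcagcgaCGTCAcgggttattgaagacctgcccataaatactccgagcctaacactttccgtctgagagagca
Ier2 (chr19:40399123-40399372, plus strand): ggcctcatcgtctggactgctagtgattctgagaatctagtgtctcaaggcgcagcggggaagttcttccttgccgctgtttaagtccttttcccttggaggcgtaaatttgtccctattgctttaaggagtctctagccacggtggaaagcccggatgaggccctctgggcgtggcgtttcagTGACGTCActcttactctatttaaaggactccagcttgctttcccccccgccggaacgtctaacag
Jund (chr16:18769772-18770021, minus strand): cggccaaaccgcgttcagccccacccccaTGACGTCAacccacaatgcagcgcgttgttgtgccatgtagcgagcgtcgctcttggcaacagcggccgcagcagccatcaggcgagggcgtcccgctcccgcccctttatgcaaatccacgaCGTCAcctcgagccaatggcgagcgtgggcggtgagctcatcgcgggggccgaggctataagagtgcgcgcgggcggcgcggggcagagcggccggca

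Egr1 had 2 CArG boxes in this window and Egr2 had 1, with a CRE half-site starting 66 bases before the gene in both. CArG boxes were found in 2 of the 7 member promoters, against 1.5% of 33469 promoters of the same length. The CRE half-site was found in 6 of the 7, all but Fosb, against 18.2% of all promoters. The full CRE, TGACGTCA, which holds the half-site on both strands, was found in Jund and Ier2 and in 1.59% of all promoters. The EGR site GCGNGGGCG was found in Jund, 3 times, and in Nr4a1, against 4.29% of all promoters, and the AP-1 site TGANTCA in 0 of the 7, against 6.34%. All motifs were searched on both strands. A match is a run of letters and does not show that a factor was bound in these cells.

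**Figure D1:**
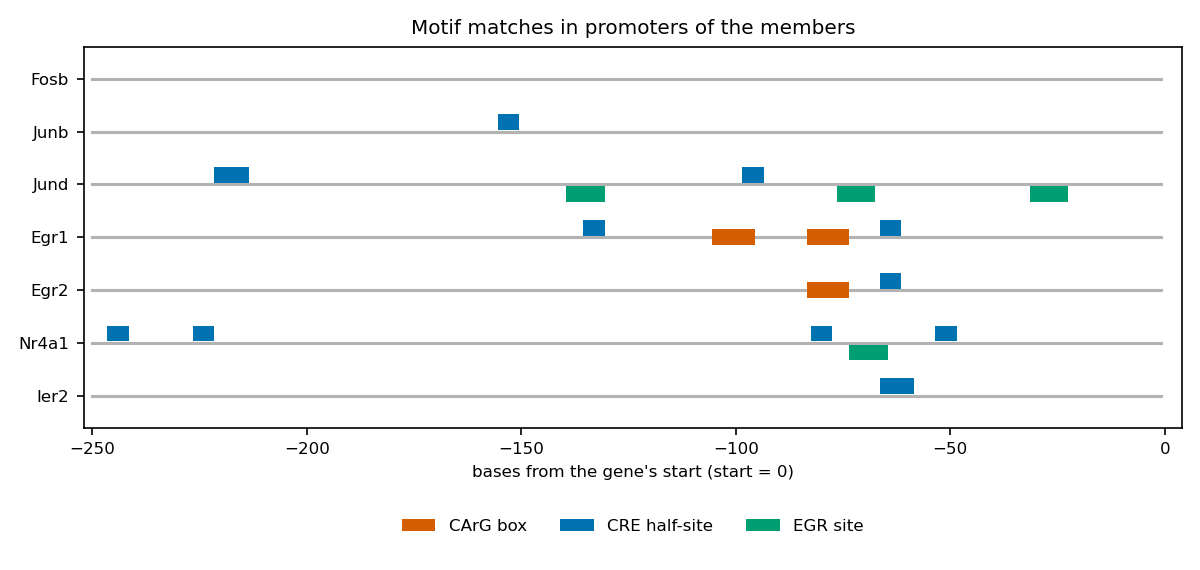
Positions of motif matches in the 250 bases before the start of the 7 member genes with a promoter entry, in bases from the start; bars are matches on either strand (orange, CArG box; blue, CRE half-site, where wider bars are full CREs; green, EGR site). Only Egr1 and Egr2 of the 7 hold CArG boxes, and Fosb holds none of the 3 motifs.

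All values below are intensities in the arrays' scaled units. Each array's median lay between 313.3 and 369.4. Probe sets for bacterial RNAs that were not added to the samples gave a background limit between 260.5 and 590.8 per array, and 34.8% to 58.1% of probe sets exceeded it. Of the 12 ganglion cell marker genes measured (a list that holds Thy1, Nefl, Nefm and Rbpms), 9 to 12 exceeded the limit on each array, and markers of glia, microglia, vessels, photoreceptors and amacrine cells were measured on the same arrays too. Of the 10 immediate early genes, each by its brightest probe set, 5, 5 and 8 exceeded the limit on the OS arrays of rats 1 to 3, against 8, 4 and 7 on the OD arrays. In such pooled material, fewer cells of a type and less RNA per cell cannot be told apart.

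None of the immediate early genes that could be tested passed the limma test between the eyes. Of the 14 probe sets, 7 were bright enough to be tested, those of Fos, Fosb, Jund, Egr1, Egr2, Egr3 and Nr4a1, and 0 of these 7 passed (smallest limma adjusted p = 0.813, for Jund). Over all 15521 tested probe sets, 0.0129% passed. At an unadjusted p under 0.05 the count was again 0 of 7, against 6.91% of all tested probe sets. OS and OD values did not overlap for 0 of the 7, against 9.95% of all. The direction was the same in 3 of 3 rats for 1 of the 7, Nr4a1, against 28.5% of all. Several members instead had large differences of opposite sign in different rats.

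**Figure D2:**
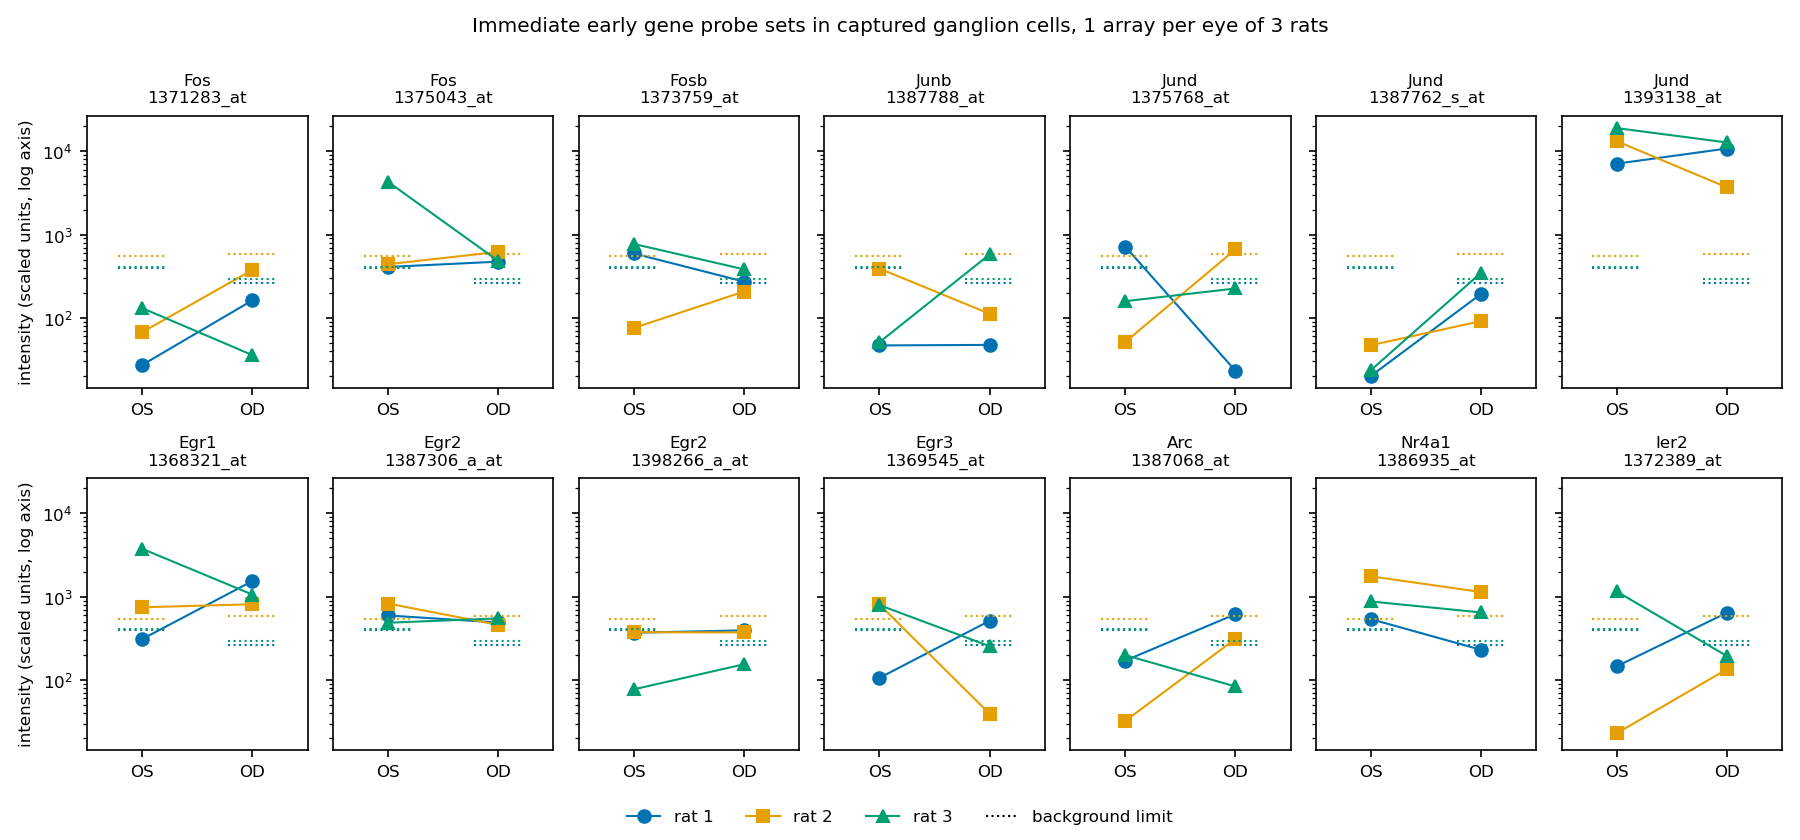
Intensity (log axis) of each of the 14 probe sets in OS and OD eyes, with lines joining the eyes of a rat and dotted marks at each array's background limit. Fos (1375043_at), Egr1 and Ier2 peak in the OS eye of rat 3, and only Jund (1393138_at) lies above the limit on all 6 arrays.

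Fos encodes the inducible partner in AP-1 and is the gene most used to mark active neurons. Its bright probe set, 1375043_at, read 408.6, 441.1 and 4311.7 in OS of rats 1 to 3, against 473.6, 619.4 and 483.3 in OD. A single array stood out: 5 of the 6 lay within a narrow band, and OS of rat 3 was 6.96 times the next highest. That band lay near background: the limits were 399.6, 546.6 and 409.2 in OS, against 260.5, 590.8 and 292.9 in OD. OS of rat 2 was below its limit, and OS of rat 1 and OD of rat 2 were just above theirs. The difference was 0.81 ± 2.0 on the log2 scale (SD, n = 3 rats; limma adjusted p = 0.851, 95% interval -0.74 to 2.37). Without rat 3 it was -0.34. The second Fos probe set, 1371283_at, read 27.2, 67.4 and 131.0 in OS, against 162.6, 376.9 and 35.7 in OD, below the background limit on all 6 arrays. It too was higher in OS in rat 3 and lower in OS in rats 1 and 2, all within background.

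Fosb, a close relative of Fos with a long-lived splice form, read 594.3, 75.6 and 773.5 in OS, against 272.7, 206.9 and 383.0 in OD. Its values were higher in OS in rats 1 and 3 and lower in rat 2, where both eyes were below the limit, and the eyes overlapped. The log2 difference was 0.26 ± 1.34 (SD, n = 3 rats; limma adjusted p = 0.971, 95% interval -1.94 to 2.46). It was -0.15 without rat 1 and -0.10 without rat 3.

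Junb, an inducible Jun protein, read 46.7, 391.3 and 51.0 in OS, against 47.4, 112.0 and 578.8 in OD. Its OD value in rat 3 was the only one of the 6 above the limit, on the array opposite to the one on which Fos peaked. It was too dim to be tested, and with every OS value within background no size of a difference is given.

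Jund encodes the Jun protein that many resting cells make steadily. Probe set 1393138_at read 7104.6, 13272.4 and 19000.6 in OS, against 10804.2, 3685.9 and 12774.9 in OD. It lay far above the background limit on all 6 arrays, and the eyes overlapped. The log2 difference was 0.60 ± 1.22 (SD, n = 3 rats; limma adjusted p = 0.813, 95% interval -0.34 to 1.55), lower in OS in rat 1 and higher in rats 2 and 3. Without rat 2 it was -0.02. The other Jund probe sets did not follow it. Probe set 1375768_at read 718.6, 51.2 and 158.7 in OS, against 23.2, 663.4 and 225.5 in OD, with 1 value above the limit in each eye. Probe set 1387762_s_at, whose suffix marks probes that match more than 1 transcript, read 20.1, 47.0 and 23.6 in OS, against 194.4, 91.6 and 349.1 in OD. It was the only member probe set whose eyes did not overlap, but 5 of its 6 values, all 3 of OS among them, were within background, so no size of a difference is given. Fitted without the brightness filter, it had a limma adjusted p of 0.771.

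Egr1, the zinc finger factor whose promoter carries 2 CArG boxes, read 310.0, 746.1 and 3756.4 in OS, against 1541.2, 811.7 and 1060.4 in OD. The OS arrays of rats 1 and 3 were the lowest and the highest of the 6, so the eyes overlapped fully. The log2 differences were -2.26, -0.12 and 1.81 in rats 1 to 3, with a mean of -0.19 ± 2.03 (SD, n = 3 rats; limma adjusted p = 0.965, 95% interval -1.57 to 1.19). OS of rat 1 was below its limit of 399.6, so the difference in rat 1 and the mean rest partly on a background value. Without rat 1 the mean turned to 0.85.

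Egr2 is needed for myelination by Schwann cells and is also induced in active neurons. Probe set 1387306_a_at read 594.9, 827.9 and 486.8 in OS, against 490.4, 458.9 and 549.4 in OD. Its log2 range over the 6 arrays was 0.83, a range that lay at the 2.1st percentile among tested probe sets. OD of rat 2 was below its limit of 590.8, and OS of rat 3 was not far above its limit of 409.2. The difference was 0.31 ± 0.50 (SD, n = 3 rats; limma adjusted p = 0.946, 95% interval -1.23 to 1.85), and 0.05 to 0.55 with 1 rat left out. Its dimmer probe set, 1398266_a_at, read 369.1, 374.7 and 77.2 in OS, against 394.3, 372.0 and 154.4 in OD. It was lower in both eyes of rat 3 than in the other rats and exceeded the limit on 1 array.

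Egr3, which is induced together with Egr1 in many neurons, read 106.0, 807.1 and 792.4 in OS, against 514.2, 39.2 and 254.3 in OD. It was lower in OS in rat 1 and higher in rats 2 and 3, and exceeded the limit on 2 of 3 OS and 1 of 3 OD arrays. The log2 difference was 1.12 ± 3.04 (SD, n = 3 rats; limma adjusted p = 0.874, 95% interval -1.41 to 3.65). Without rat 2 it was -0.27.

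Nr4a1, also known as Nur77, read 537.8, 1755.9 and 876.0 in OS, against 230.1, 1137.5 and 646.8 in OD. It was the member with the steadiest difference, higher in OS in each of the 3 rats, although the values of the eyes overlapped. The log2 differences were 1.17, 0.62 and 0.43, with a mean of 0.74 ± 0.39 (SD, n = 3 rats; limma adjusted p = 0.845, 95% interval -0.61 to 2.09). OD of rat 1 was below its limit of 260.5, so the difference in rat 1 and the mean rest partly on a background value. Both arrays of rat 2 were the highest, and the test between rats gave Nr4a1 the smallest p of the members (F test unadjusted p = 0.0708, limma adjusted p = 0.450).

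Arc, whose RNA is carried to active synapses, read 170.9, 32.2 and 198.9 in OS, against 616.4, 311.2 and 83.7 in OD. Only the OD array of rat 1 exceeded its limit. Ier2 read 145.8, 22.9 and 1155.8 in OS, against 641.4, 134.5 and 194.0 in OD. The OS array of rat 3 and the OD array of rat 1 were above the limit and the other 4 were not. Both genes were too dim to be tested. The mean log2 difference of Ier2 was -0.50 ± 2.58 (SD, n = 3 rats), and none is given for Arc, whose OS values were all within background. In both, OS was the lower eye in rats 1 and 2 and the higher eye in rat 3, as it was for both Fos probe sets.

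**Figure D3:**
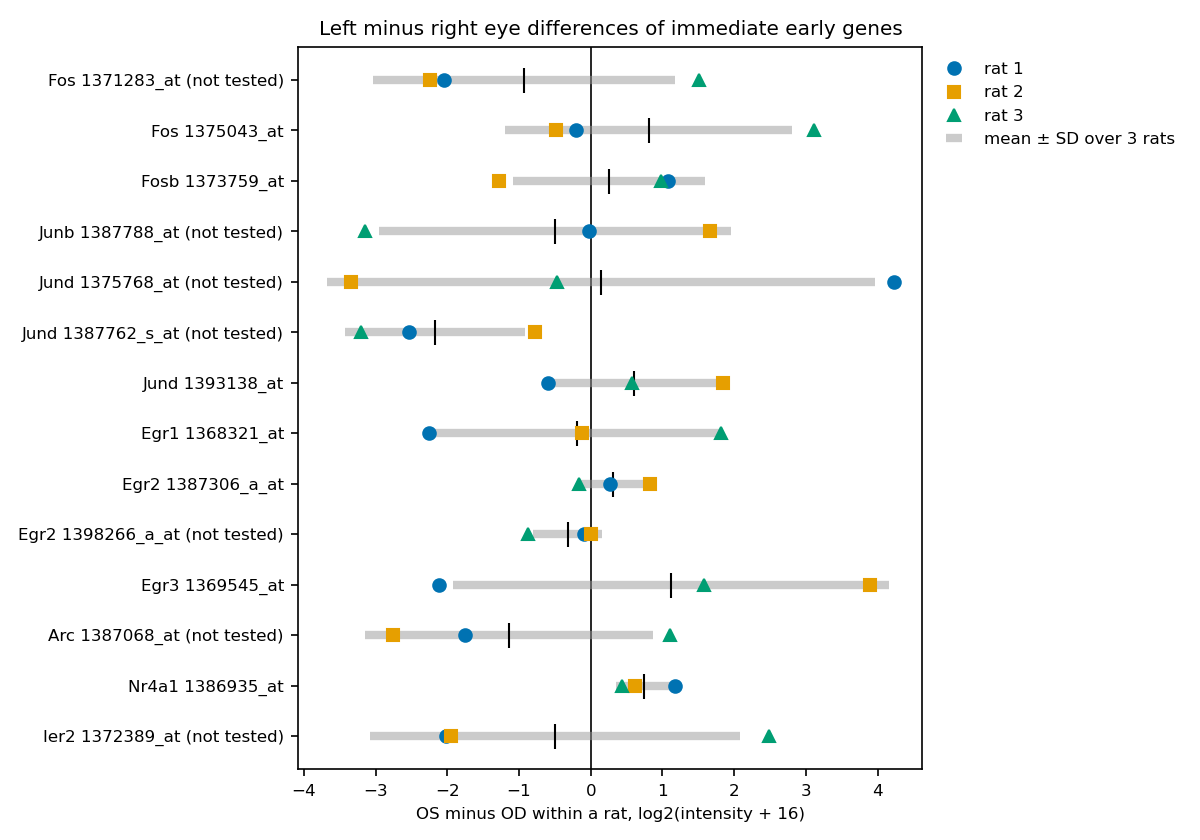
Left minus right difference of log2(intensity + 16) for each probe set in rats 1 to 3 (points), with the mean (tick) and SD over the 3 rats (grey bar). The points of most probe sets fall on both sides of 0, and those of Nr4a1 and of Jund 1387762_s_at fall on 1 side. Most values of the probe sets marked as not tested lie within background, so the size of their differences is not a measurement.

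Taking each gene by its brightest probe set, 3 of the 10 genes were higher in OS in rat 1, 5 in rat 2 and 8 in rat 3. These counts include signs from pairs with both eyes within background, such as Arc in rat 3. The median log2 difference over the 10 genes was -0.40 in rat 1, 0.25 in rat 2 and 1.05 in rat 3, against medians between -0.05 and 0.12 over all probe sets. Averaged over the rats, the median was 0.29 for the 10 genes and 0.60 for the 7 tested ones, against 0.05 over all probe sets and -0.01 over the tested ones. The values over all probe sets are not reduced to 1 probe set per gene. Counted in that way, the 14 member probe sets had a median of -0.02, with 7 higher and 7 lower in OS. Their medians were -0.40, -0.30 and 0.78 in rats 1 to 3, so the lean to OS depended on the choice of probe set. The filter on dim values favours genes with a high array, so the value for the 7 is a description only. These are medians of genes chosen with earlier results of these arrays known.

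The OS array of rat 3 held more of the members' highest values than any other. Of the 10 genes, 5 had their highest value in the OS eye of rat 3 (Fos, Fosb, Jund, Egr1 and Ier2), 3 in OS of rat 2 (Egr2, Egr3 and Nr4a1) and 0 in OS of rat 1. On the OD side, Arc peaked in rat 1, Junb in rat 3 and 0 genes in rat 2. Over all 14 member probe sets, 5 (35.7%) were highest in OS of rat 3, against 18.4% of all probe sets. Among tested member probe sets, 4 of 7 were highest in OS of rat 3, against 18.9% of all 15521 tested probe sets. For 2 of the 7, Fos and Egr1, the highest array was at least 4 times the median of the other 5 (9.10 and 4.63 times), against 10.6% of all. OS of rat 3 is singled out because it held the most of the members' highest values, which favours the members in these shares. The filter also favours genes with a high array, so the shares are a description only. Relative to each gene's mean over the 6 arrays, the median of the 10 genes on the log2 scale was -0.49, -0.01 and 1.12 in OS of rats 1 to 3, against -0.01, -0.30 and -0.07 in OD. Over all 14 probe sets it was -0.49, -0.44 and 0.33 in OS, against 0.35, -0.16 and -0.07 in OD.

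Markers of other cells differed between the arrays too. By their sums, those of microglia, of vessels and, by a small margin, of glia were highest in OS of rat 3. Summed over 11 microglia and macrophage markers, the intensity was 6915, 3681 and 13073 in OS of rats 1 to 3, against 3420, 5672 and 4782 in OD, and Lyz2 alone gave 8401.7 of the sum in OS of rat 3. Marker by marker, OS of rat 1 came first for this list, with 4 of the 11 at their highest there and 3 in OS of rat 3, and a median relative to each marker's mean of 0.84 in OS of rat 1 and 0.43 in OS of rat 3 (log2). The 8 vascular markers summed to 4622, 2728 and 12511 in OS, against 6179, 5679 and 6969 in OD, with Kdr at 8613.9 in OS of rat 3. The 9 glial markers (Müller glia and astrocytes) summed to 10728, 9282 and 30938 in OS, against 29613, 10809 and 30152 in OD, with Dkk3 at 12694.1 in OS of rat 3. Marker by marker, OD of rat 1 came first for glia, with 4 of the 9 at their highest there and 2 in OS of rat 3. The median relative to each glial marker's mean was 0.71 in OD of rat 1 and 0.52 in OS of rat 3. Of the 8 vascular markers, 4 were highest in OS of rat 3. Of these 3 lists, 7 of 11, 5 of 8 and 8 of 9 markers exceeded the limit in OS of rat 3. The 12 ganglion cell markers summed to 16222, 18654 and 17075 in OS, against 37654, 26070 and 32498 in OD. All 11 of the tested ganglion cell markers had a lower mean in OS, with a median log2 difference of -0.64. None passed by limma (4 at an unadjusted p under 0.05, against 6.91% of all tested probe sets). Photoreceptor markers (8 genes) summed to 15885, 8966 and 23175 in OS, against 15363, 9711 and 35999 in OD. Amacrine cell markers (10 genes) summed to 12680, 13410 and 25048 in OS, against 31678, 27888 and 73286 in OD, so these lists were highest in OD of rat 3. A lower mean in OS was not particular to ganglion cell markers. Of the 6 tested amacrine markers, 4 were lower in OS at a limma unadjusted p under 0.05 and 2 had a higher mean. The median log2 difference of tested markers was -1.22 for amacrine cells, 0.07 for photoreceptors, -0.39 for glia, 0.34 for microglia and -0.39 for vessels. None of these markers passed by limma. The log2 ratio of the 3′ to the 5′ probe set of actin, a measure of RNA integrity and amplification, was 3.11, 0.69 and 3.49 in OS, against 1.17, -0.1 and 2.03 in OD. The same ratio for Gapdh was 1.49, 1.6 and 1.89 in OS, against 1.2, 0.69 and 4.85 in OD, so actin was most uneven in OS of rat 3 and Gapdh in OD of rat 3. The part of other cells and of RNA quality in the immediate early gene values was not tested.

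**Figure D4:**
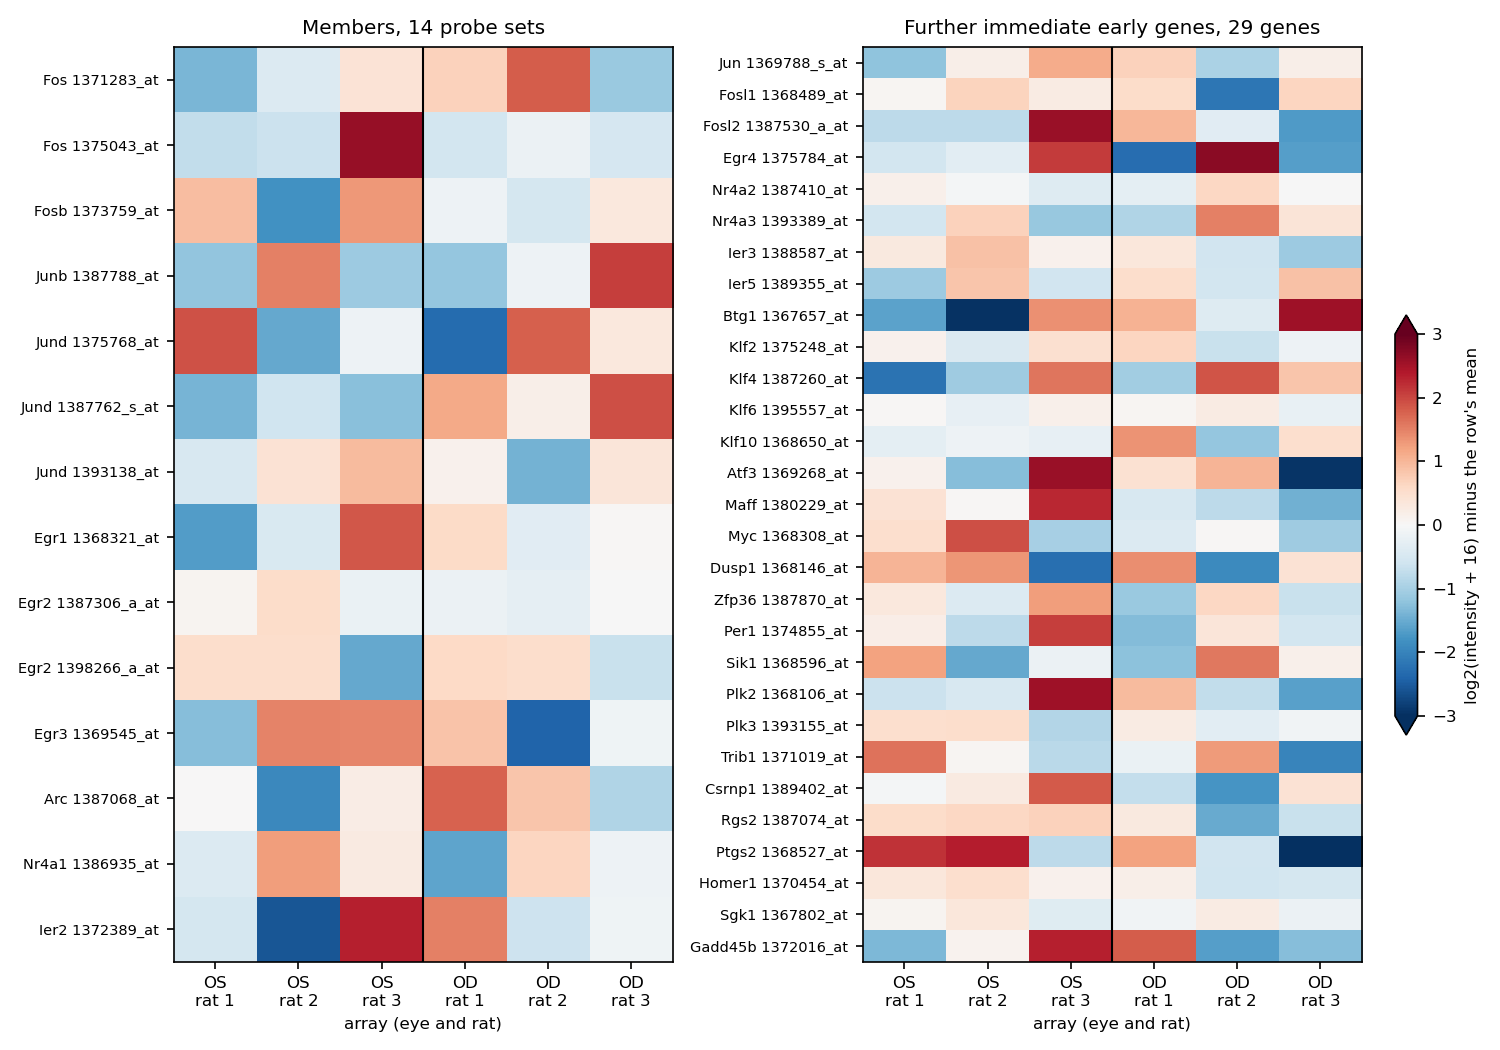
Log2(intensity + 16) minus its mean over the 6 arrays (colour) for the 14 member probe sets (left) and the 29 further immediate early genes, each by its brightest probe set (right), by array. The strongest red of Fos (1375043_at), Egr1, Ier2, Atf3 and Fosl2 lies in the column for OS of rat 3, where Junb, Egr2 (1398266_a_at) and Dusp1 are blue.

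A list of 32 further immediate early genes, drawn up with earlier results of these arrays known, had 29 genes with a probe set of their own symbol and 15 bright enough to test. None of the 15 passed between eyes by limma (0 higher and 0 lower). At an unadjusted p under 0.05 the count was 1 of 15, near the 6.91% of all tested probe sets, so the genes with the smallest p are given as values only. The 1 was Ptgs2, the inducible cyclooxygenase gene, at 3725.6, 4292.3 and 468.1 in OS, against 1922.9, 545.2 and 24.9 in OD (log2 difference 2.48 ± 1.37, SD, n = 3 rats, limma adjusted p = 0.292). Only 1 of its 3 OD values exceeded the limit, so the size of its difference rests partly on background values. Unlike the members with a peak in rat 3, Ptgs2 was highest in OS of rats 1 and 2. Next by p came Rgs2, a regulator of G protein signalling, with 1.25 ± 0.95 (limma adjusted p = 0.730), though its other probe set had the opposite sign. Btg1, an antiproliferative gene, followed with -2.13 ± 0.83 (limma adjusted p = 0.736), and Zfp36, whose product speeds the decay of unstable RNAs, with 0.78 ± 1.58 (limma adjusted p = 0.875). Btg1 exceeded the limit on 1 of 3 OS and 2 of 3 OD arrays, and Zfp36 on 2 of 3 OS and 1 of 3 OD. The sizes of both rest partly on background values.

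By array, 10 of the 29 further genes (34.5%) were highest in OS of rat 3, against 18.4% of all probe sets, but 6 of these 10 were too dim to be tested (Fosl2, Maff, Per1, Plk2, Csrnp1 and Gadd45b). Among the 15 tested genes, OS of rat 2 held the highest value of 5 (33.3%) and OS of rat 3 of 4 (26.7%), against 17.6% and 18.9% of all tested probe sets. Values of AP-1 relatives of the members on this list, chosen after they were seen, are given as a description. Jun read 423.1, 1121.2 and 2181.2 in OS, against 1618.9, 508.5 and 1120.9 in OD. In rats 1 and 3 its differences had the signs of those of Egr1, and in rat 2 it was higher in OS. Fosl1, a Fos relative, read 410.7, 630.8 and 469.0 in OS, against 587.1, 75.5 and 618.4 in OD, highest in OS of rat 2 and lower in OS in rat 3. Atf3, a stress-induced partner of Jun proteins, read 483.1, 173.2 and 2741.4 in OS, against 607.2, 913.4 and 43.2 in OD. Fosl2, another Fos relative, read 53.1, 53.2 and 694.3 in OS, against 221.2, 77.8 and 20.3 in OD. Jun, Atf3 and Fosl2 were highest in OS of rat 3, and Fosl1 was not.

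**Figure D5:**
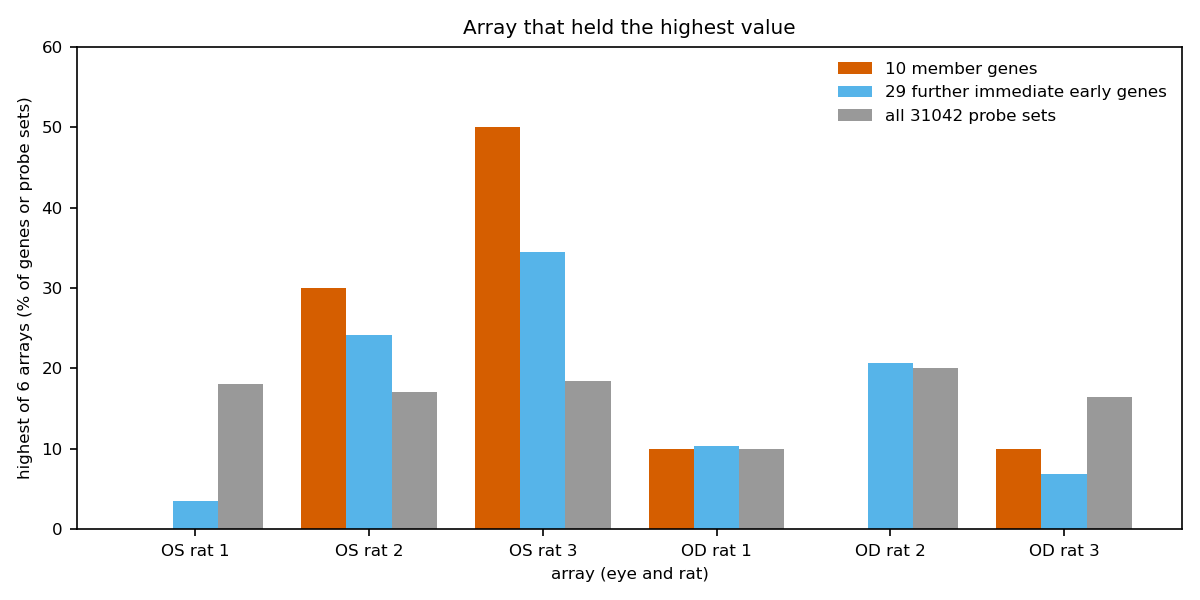
Share (%) of the 10 member genes, of 29 further immediate early genes and of all 31042 probe sets that had their highest value on each of the 6 arrays. OS of rat 3 held 50% of the members and 34.5% of the further genes (26.7% of the 15 bright enough to test), against 18.4% of all probe sets. Genes are taken by their brightest probe set. Over all 14 member probe sets the share was 35.7%. OS of rat 3 is singled out because it held the most of the members' highest values, so the shares are a description only.

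Rats were also compared with each other, with both eyes of a rat as its arrays. By a limma F test, 0 of the 7 tested member probe sets differed between rats after adjustment, against 2.51% of all tested probe sets, and 0 of 7 at an unadjusted p under 0.05, against 13.0%. The labels give no array batch, so animal and array processing cannot be told apart.

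The kinases and transcription factors that act upstream had differences of both signs. Of 26 listed genes, 23 had a probe set and 20 were tested, with 0 passing by limma in either direction and a median log2 difference of -0.04. At an unadjusted p under 0.05 the count was 1 of 20, against 6.91% of all tested probe sets. The 1 was Crebbp, a coactivator of CREB, at 489.1, 72.4 and 259.8 in OS, against 1183.0, 1000.4 and 997.0 in OD (-2.22 ± 1.18, SD, n = 3 rats, limma adjusted p = 0.590). Its eyes did not overlap, but only 1 of its 3 OS values exceeded the limit, and 3 of the 5 Crebbp probe sets had the opposite sign. Mapk9, a stress-activated kinase that phosphorylates Jun, read 661.9, 489.9 and 667.6 in OS, against 206.6, 111.6 and 162.0 in OD, where all 3 values were below the limit, so no size of a difference is given (limma adjusted p = 0.763). Elk1, an SRF partner, differed by 1.76 ± 2.09 (limma adjusted p = 0.781), and Rps6ka3, a kinase that acts on CREB, by 1.39 ± 0.30 (limma adjusted p = 0.791). Both exceeded the limit on 2 of 3 OS and 1 of 3 OD arrays, so these sizes rest partly on background values. Mapk9, Elk1 and Rps6ka3 were each higher in OS in 3 of 3 rats, and 1 other probe set of each of Elk1 and Rps6ka3 went the other way.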

How the data were processed

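RNA of laser-captured cells was isolated (PicoPure) and linearly amplified (RiboAmp HS), and 10 µg of biotin-labelled product went onto each 1-colour Affymetrix array, per the labels' protocols. The deposited values are linear intensity values, 1 per probe set, made with GCOS, which the submitters' processing notes name without settings. Trimmed by 2% at both ends, each array's mean was 500.1, so the values were scaled before deposit, and no detection calls were used. Depth does not apply to arrays, and their number limits the precision.

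The members and the gene lists were chosen with earlier results of these data known. Gene names came from the platform annotation, and 10 of 10 member symbols were found in the RefSeq table of GRCr8. An offset of 16 was added before log2, which understates fold changes of dim probe sets. The brighter part of the probe sets, from the median of their mean log2 values up, was tested (15521 of 31042, without 57 controls) with limma 3.58.1 in R 4.3.3, with rat as a fixed block, an intensity trend, two-sided tests and Benjamini-Hochberg adjustment at 0.05. The fit was tested on simulated data. The background limit is the 95th percentile of 27 unspiked bacterial probe sets. Differences are means ± SD of 3 within-rat differences; the limma intervals lean on the spread of other probe sets as well (2 residual and 19.4 prior degrees of freedom).

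Pairing follows from the labels, which give both eyes of 1 animal. Deviations from the eye means correlated between the eyes at 0.109, 0.122 and 0.326 in rats 1 to 3, across tested probe sets. Genes named beside the members are the 4 with the smallest unadjusted p of each of 3 pathway lists. Further immediate early genes outside that rule, and the marker genes named with a value, were added after their values were seen.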

Additional observations from a re-analysis of the deposited data

How the results depend on the processing

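All alternatives were listed with the design. Over all tested probe sets, the count of 2 past the threshold between eyes fell to 0 in 6 settings: no replicate block, a random replicate block, an offset of 1, quantile normalization, no intensity trend, and a filter at the 75th percentile of brightness. A robust prior gave 1, an offset of 64 gave 9, dropping the filter gave 9, and leaving out each rat in turn gave 18 to 59. The count between rats, 390, was 238 after quantile normalization, 152 from the 75th percentile up and 0 without the trend. The cause was not tested. For the members the count stayed at 0 under each alternative run, between eyes (smallest member adjusted p 0.586 to 0.953) and between rats (0.306 to 0.621); the block changed no call of a member. With 1 rat left out, 6 of 21 differences of tested members changed sign: Egr1 ranged from -1.19 to 0.85, Egr3 from -0.27 to 2.74, Fos (1375043_at) from -0.34 to 1.46, Fosb from -0.15 to 1.03, without rat 1 at the low end and -0.10 without rat 3, and Jund (1393138_at) from -0.02 to 1.21. None of the 63 values under the other alternatives did. The median over tested member genes ranged from 0.05 to 0.85 with 1 rat left out. Signal over background limits the dim members: Fos 1371283_at was never above the limit, and Arc and Junb were above it on 1 array each.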

Other observations

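Effector genes that neuronal activity is known to regulate, with partners of the immediate early proteins, made up a list of 24 genes, of which 22 had a probe set and 10 were bright enough to test. None passed between eyes by limma (1 higher and 1 lower in OS at an unadjusted p under 0.05, against 6.91% of all tested probe sets). The median log2 difference was -0.34 over the 22 genes, against 0.05 over all probe sets, and -0.62 over the 10, against -0.01 over all tested probe sets. Inhba, a subunit of the growth factor activin, read 2552.9, 1078.7 and 850.2 in OS, against 1388.4, 38.9 and 311.7 in OD (2.20 ± 1.86, SD, n = 3 rats, limma adjusted p = 0.539), higher in OS in 3 of 3 rats, though its other probe set went the other way. Vgf, a neuropeptide precursor gene, read 644.8, 427.2 and 4071.9 in OS, against 2023.3, 2189.7 and 4340.6 in OD (-1.34 ± 1.14, limma adjusted p = 0.601), lower in OS in 3 of 3 rats. Both Vgf and Syt4, a synaptotagmin gene of secretory vesicles, were highest in the eyes of rat 3. Syt4 read 1026.0, 876.7 and 4316.6 in OS, against 3078.9, 1594.1 and 3350.1 in OD (-0.69 ± 0.98, limma adjusted p = 0.810). Bdnf, the neurotrophin gene that CREB is known to drive, read 734.0, 530.5 and 999.6 in OS, against 369.7, 631.5 and 133.5 in OD (1.16 ± 1.51, limma adjusted p = 0.810). The highest value of Bdnf was in OS of rat 3, as for 5 of the 22 genes of the list (22.7%), against 18.4% of all probe sets. In OD of rat 3 the count was 6 of the 22 (27.3%). Inhba exceeded the limit on 3 of 3 OS and 2 of 3 OD arrays. Vgf did so on 2 of 3 OS and 3 of 3 OD arrays, and Bdnf on 2 of 3 in each eye. The sizes of the differences of Inhba, Vgf and Bdnf rest partly on background values.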
